A study of Mus musculus with 16 samples.

Results

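Liver and kidney taken from the same 4 mice under a fixed light–dark cycle (LD) were compared by RNA-seq. The animals were male wild-type C57BL/6J mice that had been kept for 85 weeks with lights on from 8 to 20 h and were 97 weeks old when the organs were collected in the early dark period. These 8 libraries are part of a series of 16. The other 8 are the liver and kidney of 4 mice of the same sex, strain, age and duration, for which the light–dark cycle was advanced by 8 h every 4 days (ADV). The mice are named by the number in the labels (L63, L65, L86 and L104), and a liver and a kidney with the same number were taken as a pair. The deposited unit is FPKM, the fragments on a gene divided by its exon length in kb and scaled to the total of the library. Genes were matched between the organs by gene identifier, and the 13796 of the 32989 genes with a mean above 0.5 FPKM in either organ were compared. Of these, 10680 were above 0.5 FPKM in both organs, 615 in liver alone and 2501 in kidney alone.

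The liver parenchyma is mostly hepatocytes, which secrete the majority of plasma proteins, make bile acids, urea and ketone bodies, and store and release glucose. The kidney is a series of specialised epithelia. Podocytes of the glomerulus hold back protein during filtration, the proximal tubule takes up solutes from the filtrate, and the thick ascending limb, distal convoluted tubule and collecting duct adjust salt, water and acid. Several circulating products, including creatine, angiotensin and active vitamin D, are made in steps that are divided between the organs.

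Between 22501279.5 and 24285055 fragments lay on annotated genes in the liver libraries and between 15688495 and 17851563 in the kidney libraries, which was between 91.6% and 92.9% of each library. A single fragment on 1 kb of exon amounted to between 0.0380 and 0.0409 FPKM in liver and between 0.0515 and 0.0584 FPKM in kidney, so the kidney libraries resolved low levels less finely. Pearson correlations of log2(FPKM + 0.1) between mice were between 0.977 and 0.990 within an organ and between 0.561 and 0.567 across organs. The labelled organs were checked against markers: 8 of 8 hepatocyte markers were higher in liver as deposited, 7 of them in every scaling, and 9 of 9 proximal tubule and 6 of 6 podocyte markers were higher in kidney. The study names a pair of sequencing providers without tying a library to either, so organ and provider cannot be told apart. In bulk RNA, more cells of a type and more RNA per cell cannot be told apart either.

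The kidney of L86 stood apart from the other kidneys. Of 13181 genes with a mean above 0.5 FPKM in kidney, L86 was the highest by a gap that exceeded Dixon's 95% critical value for 4 samples in 293, against 57 for L63, 25 for L65 and 68 for L104. It was the lowest by such a gap in 54, against 84 for L63, 56 for L65 and 84 for L104. Chance gives about 1 in 20 genes over the 4 libraries and both sides. Havcr1 and Krt20, which encode a tubular injury receptor and a keratin and were picked after their values were seen, were at 111 and 15.4 FPKM in this kidney and at most at 12.6 and 1.63 FPKM in the other kidneys. Spp1, which encodes osteopontin, was at 605, 759, 2676 and 709 FPKM in the kidneys of L63, L65, L86 and L104. The livers held 21.0, 22.2, 24.8 and 16.9 FPKM, so that every kidney lay above every liver. Its log2 difference was −5.52 with all mice and −5.11 without L86. Some of the results that rest on this kidney are given with and without it, and what set it apart was not tested.

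Most genes that differed were higher in kidney when the values were used as deposited. By limma on log2(FPKM + 0.1) with the mouse as a block, 2270 genes (16.5%) were higher in liver and 9522 (69.0%) were higher in kidney at an adjusted p under 0.05, and 2004 were not called. A difference shown to exceed 2-fold was called for 1115 genes (8.08%) in liver and 4299 (31.2%) in kidney. Log2 differences are given as liver minus kidney, so that negative values are higher in kidney. The median over all 13796 genes was −0.80, and this shift depended on the scaling between libraries. After scaling by the median ratio the median was −0.03, with 5036 genes higher in liver and 5437 in kidney, and after quantile normalization the counts were 4936 and 5310. Liver genes made up 19.3% of the calls as deposited and 48.1% after scaling by the median ratio. The direction of small differences thus depended on the scaling, and 1621 genes called higher in kidney were called higher in liver under another scaling. In all 3 scalings, 1107 genes were over 2-fold higher in liver and 1922 in kidney. Unless stated otherwise, each gene described as over 2-fold higher held that call in all 3, as marked in the scatter plot of mean levels. Counts of list members are those with the values as deposited where no scaling is named, and the shares of all genes above are what they are read against. Where an organ held no fragment, the log2 difference depends on the 0.1 added, and a fold is given as at least the ratio to a floor of 3 fragments over the 4 libraries.

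**Figure D1:**
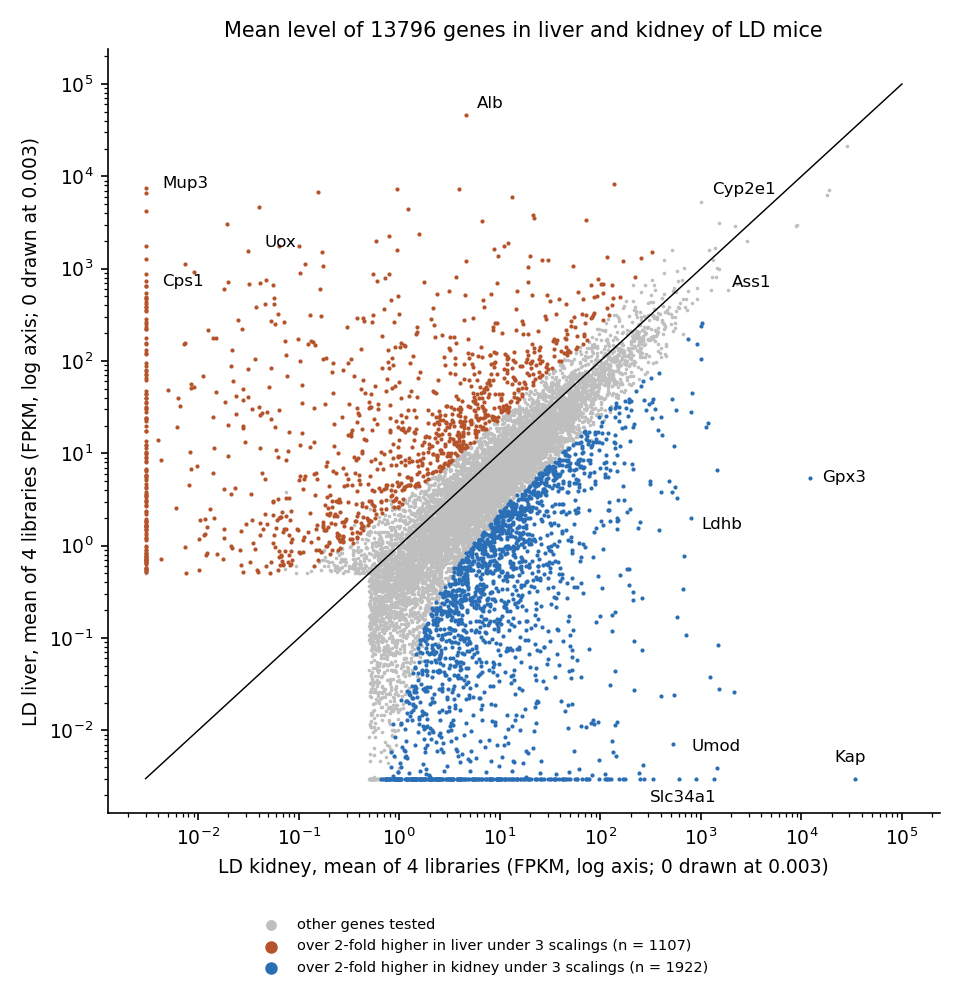
Mean FPKM over the 4 LD livers (vertical, log axis) against the mean over the 4 LD kidneys (horizontal, log axis), with 1 point for each of the 13796 genes and means of 0 drawn at 0.003. Red and blue points are the 1107 and 1922 genes over 2-fold higher in liver and in kidney under the 3 scalings, and the line marks equal levels. The grey cloud lies mostly below the line, as the median log2 difference of −0.80 with the deposited scaling gives, and moves onto it under the other scalings.

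Most of the largest differences toward liver were in genes of secreted proteins. All 25 plasma protein and apolipoprotein genes tested were over 2-fold higher in liver, with a median log2 difference of 10.66 against −0.80 over all genes tested. Their summed level was between 85715 and 99503 FPKM in the livers and between 272 and 286 FPKM in the kidneys. Alb, which encodes serum albumin and lies on chromosome 5 from 90460870 to 90476602, was at 52061, 44947, 48099 and 41459 FPKM in the livers of L63, L65, L86 and L104. The same gene was at 4.60, 5.71, 4.25 and 3.86 FPKM in their kidneys. Every liver lay above every kidney, by 10124-fold in the mean level (log2 difference 13.28, SE 0.101, adjusted p = 4.7e-11 by limma). Ahsg, the mineral-binding fetuin-A, was at 4865, 3886, 4102 and 3783 FPKM in the livers, and no fragment was found in any kidney. This was at least 150079.9-fold higher in liver. Apoa1, the main apolipoprotein of high-density lipoprotein, was at 6781 ± 853 FPKM in liver (SD, n = 4 mice) and at 0.155 ± 0.0258 FPKM in kidney (log2 difference 14.69, SE 0.0989, adjusted p = 4.7e-11 by limma). Hpx, which encodes the haem carrier hemopexin, was at 2661, 2806, 4073 and 2706 FPKM in the livers and at 0, 0, 0.0396 and 0.0375 FPKM in the kidneys, where the nonzero values rest on single fragments. The 10 most abundant entries in liver were Alb, Apoe, Mup3, Fabp1, Apoa2, Apoa1, Serpina3k and 3 entries on the mitochondrial chromosome (DQ539915, AK163440 and X57780). Apoe, which travels on lipoproteins, was at 8212 ± 402 FPKM in liver and at 138 ± 46.0 FPKM in kidney, a 59.6-fold difference in the mean. Fabp1, the fatty acid-binding protein of hepatocytes, was at 7334 ± 1848 FPKM in liver and 0.942 ± 0.366 FPKM in kidney.

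Male mice secrete major urinary proteins from the liver into urine as pheromone carriers. Mup3, Mup20 and Mup7 were at 7551 ± 1389.8, 1776 ± 355 and 1279.8 ± 419 FPKM in liver and had no fragment in any kidney. They belong to a family of near-identical copies, and reads with a low mapping quality had been removed before counting, so the split between copies is uncertain. The same holds for Serpina3k and Serpina1e, protease inhibitors of the plasma at 6521 ± 1883 and 4689.8 ± 689 FPKM in liver and at 0 and 0.0401 ± 0.0355 FPKM in kidney. Of 8 male-biased liver genes, 7 were higher in liver. The exception was Cyp4a12a, a fatty acid hydroxylase, at 98.8, 94, 63 and 76.0 FPKM in the livers and 82.2, 68.9, 77.8 and 102 FPKM in the kidneys. The groups overlapped, and the log2 difference was −0.00 as deposited and 0.79 after scaling by the median ratio. Hsd3b5, a steroid dehydrogenase with male-biased expression in liver, varied most between mice in this list, at 100.3, 58.8, 11.2 and 52.8 FPKM in the livers of L63, L65, L86 and L104.

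Coagulation genes were mostly higher in liver. Of 26 coagulation genes, 21 were higher in liver (19 over 2-fold) and 5 in kidney, with a median log2 difference of 7.47. Plg, the zymogen of plasmin, was at 704 ± 34.0 FPKM in liver and 0.0414 ± 0.0184 FPKM in kidney (log2 difference 12.29, SE 0.0965, adjusted p = 4.7e-11 by limma). The other leading members were alike. Fgb, a fibrinogen chain, Serpind1, the thrombin inhibitor heparin cofactor II, and F12, a contact factor, had log2 differences of 10.70, 10.65 and 10.62. F11, another contact factor, was at 23.6 ± 8.07 FPKM in liver and had no fragment in kidney. Over 2-fold higher in kidney were F3 and Thbd, the cell-surface proteins tissue factor and thrombomodulin, and the plasminogen activators Plat and Plau. Plau, the urokinase gene, was at 222, 112, 261 and 172 FPKM in the kidneys and 0.421, 0.270, 0.424 and 0.403 FPKM in the livers, so that the organs were far apart in each mouse (log2 difference −8.59, SE 0.13, adjusted p = 8.5e-10 by limma). Procr, the protein C receptor, was called higher in kidney as deposited (−0.90) and higher in liver after quantile normalization (0.75).

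Of 26 complement genes, 23 were higher in liver and 0 in kidney by limma as deposited, with a median log2 difference of 4.57. Of the terminal components, C8b was at 156 ± 22.4 FPKM in liver with no fragment in kidney, and C9 was at 317 ± 20.9 FPKM in liver and 0.548 ± 0.0597 FPKM in kidney. The regulator C4bp and the lectin Mbl2 had log2 differences of 10.50 and 9.25. C3, the central component, was at 1139, 1181, 1852 and 1306 FPKM in the livers and 5.76, 10.3, 55.7 and 7.62 FPKM in the kidneys of L63, L65, L86 and L104. The kidney of L86 was again the highest, and the log2 difference was 6.72 with it and 7.28 without it. Serpina10, a protein Z-dependent protease inhibitor, moved likewise, from 5.36 with L86 to 6.10 without it. C3 and Serpina10 were picked for this after their values were seen.

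The largest differences toward kidney were in genes of the tubule. Kap, which encodes the kidney androgen-regulated protein and lies on chromosome 6 from 133849855 to 133853667, was at 36301, 35098, 26080.2 and 38937 FPKM in the kidneys of L63, L65, L86 and L104. No fragment of it was found in any liver, which makes it at least 686009-fold higher in kidney. It was the most abundant gene of the kidney, above the 5 mitochondrial entries among the top 10. Gpx3, the plasma glutathione peroxidase, followed among nuclear genes at 11547, 12354, 13499.9 and 11116 FPKM in the kidneys against 4.49, 4.68, 5.84 and 6.48 FPKM in the livers, a 2258-fold difference in the mean. Fth1 and Eef1a1, a ferritin subunit and an elongation factor, were also among the 10 most abundant and were high in liver too, at 2286 ± 153 and 2176 ± 247 FPKM in kidney and 674 ± 45.7 and 2918 ± 314 FPKM in liver. Of 7 androgen-responsive kidney genes, 6 were over 2-fold higher in kidney as deposited and 5 in all 3 scalings. Slc7a13, an amino acid transporter of the straight tubule, Cyp2j13 and Cyp4b1, both cytochromes P450, were at 526 ± 87.0, 116 ± 11.6 and 1446 ± 139.9 FPKM in kidney and at 0.00718 ± 0.00918, 0 and 6.55 ± 0.390 FPKM in liver.

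Most nephron segments contributed genes that were nearly silent in liver. Podocyte markers were over 2-fold higher in kidney for 6 of 6 genes. Nphs1, which encodes nephrin of the filtration slit, was at 4.35 ± 0.0861 FPKM in kidney and 9.1e-04 ± 0.00181 FPKM in liver. Proximal tubule markers were over 2-fold higher in kidney for 9 of 9 genes, with a summed level between 1713 and 1935 FPKM in the kidneys and between 8.62 and 10.8 FPKM in the livers. Slc34a1, the apical sodium-phosphate cotransporter, was at 801, 884, 906 and 992 FPKM in the kidneys of L63, L65, L86 and L104 and had no fragment in the livers. This was at least 91496-fold higher in kidney, and the 4 kidneys lay within a narrow band. Slc5a2, the apical glucose transporter SGLT2, and Slc5a12, a lactate transporter, were likewise without a fragment in liver and at 71.7 ± 9.02 and 75.7 ± 5.39 FPKM in kidney. Miox, the first enzyme of inositol breakdown, Tmem27, a partner of apical amino acid transporters, and Mep1a, a brush border protease, were at 1366 ± 176, 1514 ± 67.9 and 612 ± 74.2 FPKM in kidney. Their liver levels were 0, 0.0279 ± 0.0277 and 0 FPKM. Akr1c21, a hydroxysteroid dehydrogenase, and Klk1, a kallikrein of the distal nephron, were at 1222 ± 34.3 and 1496 ± 87.5 FPKM in kidney and below 0.13 FPKM in each liver. Markers of the proximal straight tubule were less uniform, with 3 of 5 over 2-fold higher in kidney. Of the others, Cyp7b1, an oxysterol hydroxylase, was higher in liver (142 ± 48.7 FPKM against 62.7 ± 11.3 FPKM in kidney), and Slc22a7, an organic anion transporter, overlapped between the organs (−0.50 as deposited and 0.28 after scaling by the median ratio).

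The distal segments were also divided. Umod, which encodes uromodulin of the thick ascending limb, was at 1405, 1397, 1702 and 1265 FPKM in the kidneys, and a single fragment was found in 1 of the 4 livers. The other thick ascending limb markers were Slc12a1, the target of loop diuretics, Kcnj1, a potassium channel, Egf and the claudins, and 6 of 6 were over 2-fold higher in kidney. Slc12a1 was at 274 ± 23.8 FPKM in kidney with no fragment in liver, and Egf was at 262 ± 48.6 FPKM in kidney and 0.0750 ± 0.00771 FPKM in liver. Distal convoluted tubule markers were over 2-fold higher in kidney for 6 of 6 genes as deposited and for 5 in all 3 scalings, led by Slc12a3, the thiazide-sensitive cotransporter, at 148 ± 12.9 FPKM, and Calb1, a calcium buffer, at 112 ± 15.5 FPKM. Principal cell markers were over 2-fold higher for 7 of 7, and 6 of these had no fragment in liver. Aqp2, the vasopressin-regulated water channel, was at 35.7, 48.7, 84.4 and 94.7 FPKM in the kidneys of L63, L65, L86 and L104. It varied more between kidneys than Slc34a1 did, with a ratio of SD to mean of 42.8% against 8.75%. Intercalated cell markers were over 2-fold higher for 6 of 6, among them Slc26a4, the chloride-bicarbonate exchanger pendrin, at 15.9 ± 1.67 FPKM in kidney and 0.102 ± 0.0484 FPKM in liver. Fxyd2, a regulator of the sodium pump, was at 2152 ± 134 FPKM in kidney, and 1.5 fragments were counted over the 4 livers, where fragments come in steps of 0.5.

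Promoters of genes with large organ differences are shown next, as a description of their sequence. The 250 bases before the start of 2 liver genes, Alb and Ahsg, and 3 kidney genes, Slc34a1, Slc22a6 (an organic anion transporter of the proximal tubule) and Umod, were taken from RefSeq on GRCm38.p6. They are written 5′ to 3′ on the strand of the gene, with capitals for matches on either strand to TTGCNNAA (C/EBP) or CAAAGTC (a half-site of HNF4). Their positions are chr5:90460620-90460869 on the plus strand for Alb, chr16:22891765-22892014 on the plus strand for Ahsg, chr13:55399398-55399647 on the plus strand for Slc34a1, chr19:8617746-8617995 on the plus strand for Slc22a6 and chr7:119479263-119479512 on the minus strand for Umod.
Alb: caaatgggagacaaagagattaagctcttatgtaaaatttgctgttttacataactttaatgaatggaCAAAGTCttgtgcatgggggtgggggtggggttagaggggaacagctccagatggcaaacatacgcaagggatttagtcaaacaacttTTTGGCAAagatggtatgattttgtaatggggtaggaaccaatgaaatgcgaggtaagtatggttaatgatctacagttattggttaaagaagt
Ahsg: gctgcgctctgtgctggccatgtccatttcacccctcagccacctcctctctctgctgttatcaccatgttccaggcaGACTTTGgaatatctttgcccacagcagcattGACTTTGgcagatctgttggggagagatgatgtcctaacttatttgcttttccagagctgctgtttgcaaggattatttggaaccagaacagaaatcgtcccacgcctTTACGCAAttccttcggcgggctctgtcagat
Slc34a1: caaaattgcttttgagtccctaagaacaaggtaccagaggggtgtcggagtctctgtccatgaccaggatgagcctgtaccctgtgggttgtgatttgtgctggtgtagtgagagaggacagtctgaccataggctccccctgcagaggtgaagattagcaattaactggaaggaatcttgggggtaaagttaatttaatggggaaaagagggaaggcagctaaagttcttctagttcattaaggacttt
Slc22a6: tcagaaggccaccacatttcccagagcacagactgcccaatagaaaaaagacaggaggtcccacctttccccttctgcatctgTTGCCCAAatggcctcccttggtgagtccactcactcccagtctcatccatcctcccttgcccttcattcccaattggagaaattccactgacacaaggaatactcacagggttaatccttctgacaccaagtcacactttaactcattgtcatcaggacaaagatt
Umod: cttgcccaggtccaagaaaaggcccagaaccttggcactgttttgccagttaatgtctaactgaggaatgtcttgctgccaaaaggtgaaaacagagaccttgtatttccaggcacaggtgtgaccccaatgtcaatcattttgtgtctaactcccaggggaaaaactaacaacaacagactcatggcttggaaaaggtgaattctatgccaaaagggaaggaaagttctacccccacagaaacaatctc
In Alb, matches lay 94 to 87 (C/EBP) and 182 to 176 (HNF4) bases before the start. Ahsg held a C/EBP match 32 to 25 bases before the start and HNF4 matches at 172 to 166 and 140 to 134. Among the kidney genes, Slc22a6 held a C/EBP match at 167 to 160 bases, and neither set of letters was in the windows of Slc34a1 and Umod. No match of a motif overlapped a match of another in these windows. Of all 32851 promoters in the table, 9.56% held the C/EBP letters and 3.84% the HNF4 letters in the same 250 bases. Only 10288 of the 13686 symbols tested (75.2%) had a promoter entry, so shares were not compared between liver and kidney genes. A match is a description of the letters and not evidence of binding.

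The transcription factors of the organs were partly shared. Of 19 transcription factors of liver or of both epithelia, 14 were higher in liver and 4 in kidney, with a median log2 difference of 3.26. Hnf4a, a nuclear receptor of both epithelia that was picked after its values were seen, was at 178, 186, 232 and 231 FPKM in the livers and 162, 169, 143 and 195 FPKM in the kidneys. The ranges overlapped, and the log2 difference was 0.31 as deposited (SE 0.106, adjusted p = 0.0264 by limma) and 0.21 after quantile normalization, a call that did not hold in all 3 scalings nor without L86 (0.17) or L104 (0.33). Among the factors higher in liver, Nr1i3 and Foxa3, a xenobiotic receptor and a forkhead factor of hepatocytes, had log2 differences of 8.68 and 7.82. Foxa2 followed with 6.29 and Nr5a2 with 5.92. Onecut1 had no fragment in kidney and was at 5.46 ± 2.17 FPKM in liver. Toward kidney went Hnf4g (−4.57), a relative of Hnf4a. The receptor for bile acids, Nr1h4, was called higher in kidney as deposited (−0.29) and higher in liver after scaling by the median ratio (0.50), and the first call was lost without L104 (−0.21).

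All 26 transcription factors and related genes listed for the kidney were over 2-fold higher in kidney as deposited, 25 of them in all 3 scalings, and their median log2 difference was −5.70, or −6.81 with the 10 genes at 0 in liver set at their bound. The homeobox gene Hoxd8, which patterns the posterior trunk, was at 49.4, 51.3, 51.7 and 50.7 FPKM in the kidneys and 0.0698, 0.0396, 0.0372 and 0 FPKM in the livers. Its 4 kidneys were nearly level (log2 difference −8.56, SE 0.147, adjusted p = 1.6e-09 by limma). Vdr, the vitamin D receptor, and Emx1, a homeobox gene, had log2 differences of −8.60 and −7.05. Cdh16, the kidney-specific cadherin listed with these factors, was at 239.8 ± 36.4 FPKM in kidney and 0.00342 ± 0.00683 FPKM in liver. No fragment was found in any liver for Pax2, Lhx1, Emx1, Emx2, Tfap2b, Hoxa9, Hoxd9, Sim1, Foxi1 or Elf5.

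Pathways that pass products between the organs were divided by step, as drawn in the plot of pathway steps. Creatine is made in a relay, in which Gatm forms guanidinoacetate and Gamt methylates it. Gatm was at 193, 180.1, 247 and 170.4 FPKM in the kidneys of L63, L65, L86 and L104 and at 2.17, 2.5, 2.63 and 2.59 FPKM in the livers. All kidneys lay above all livers, 79.9-fold in the mean (log2 difference −6.25, SE 0.106, adjusted p = 1.5e-09 by limma). Gamt was reversed, at 116, 123, 107 and 90.9 FPKM in the livers and 11.5, 12.2, 11.2 and 13 FPKM in the kidneys. This was 9.12-fold in the mean toward liver (log2 difference 3.17, SE 0.107, adjusted p = 5.9e-08 by limma). Slc6a8, the transporter that takes up creatine, was 34.3-fold higher in kidney.

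In the renin-angiotensin system, the precursor gene was higher in liver and the protease genes in kidney. Agt, which encodes angiotensinogen, was at 228, 214, 288 and 273 FPKM in the livers and 14.9, 14.7, 22.6 and 15.9 FPKM in the kidneys. The ranges were far apart (log2 difference 3.89, SE 0.0876, adjusted p = 6.3e-09 by limma). Ren1, which encodes renin of the juxtaglomerular cells, was at 9.0, 15.8, 13.6 and 14.1 FPKM in the kidneys, and the 4 livers together held 0.5 fragment. Ace, which processes angiotensin I, was at 36.4 ± 3.47 FPKM in kidney and at 0.215 ± 0.0598 FPKM in liver. The prorenin receptor gene Atp6ap2 was over 2-fold higher in kidney as deposited (−1.42), and Mme, the peptidase neprilysin, was called higher in kidney in all 3 scalings (−1.28). Enpep, which encodes aminopeptidase A, had a log2 difference of −0.92 as deposited and −0.14 after scaling by the median ratio. The receptor Agtr1a was called higher in kidney as deposited (−0.46) and higher in liver after scaling by the median ratio (0.32). Agtr1b and Mas1, 2 further receptors, were below the minimum in both organs.

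Vitamin D is hydroxylated at carbon 25 in liver and then at carbon 1 in kidney. The 25-hydroxylase genes Cyp2r1 and Cyp27a1 were at 9.84 ± 0.832 and 195 ± 17.8 FPKM in liver and at 0.711 ± 0.214 and 17.1 ± 0.419 FPKM in kidney. Both were over 2-fold higher in liver. The 1-alpha-hydroxylase gene Cyp27b1 was at 2.42, 5.06, 2.74 and 4.28 FPKM in the kidneys of L63, L65, L86 and L104 and at 0, 0, 0.0158 and 0.0169 FPKM in the livers. The kidneys of the mice differed by up to 2.10-fold among themselves, and all lay above the livers (log2 difference −5.05, SE 0.228, adjusted p = 3.1e-07 by limma). Cyp24a1, which inactivates the hormone, had no fragment in liver and was at 25.5 ± 5.39 FPKM in kidney. Gc, the plasma carrier of vitamin D, was at 3853 ± 117 FPKM in liver and 21.6 ± 9.81 FPKM in kidney. Lrp2 and Cubn, the endocytic receptors that retrieve the carrier from filtrate, were at 139 ± 20.5 and 49.1 ± 5.18 FPKM in kidney and at 0.0438 ± 0.0163 and 0.00350 ± 0.00276 FPKM in liver.

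Ketone bodies are made in liver mitochondria and burned elsewhere. Oxct1, the enzyme that activates ketone bodies for use, was at 426, 395, 351 and 373 FPKM in the kidneys and 1.40, 1.29, 1.61 and 1.57 FPKM in the livers. Every kidney lay above every liver (log2 difference −7.95, SE 0.105, adjusted p = 4.3e-10 by limma). Differences toward liver were called for Bdh1 (0.43) and for Slc16a1 (0.78), a monocarboxylate transporter, and toward kidney for Acat1 (−1.07).

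**Figure D2:**
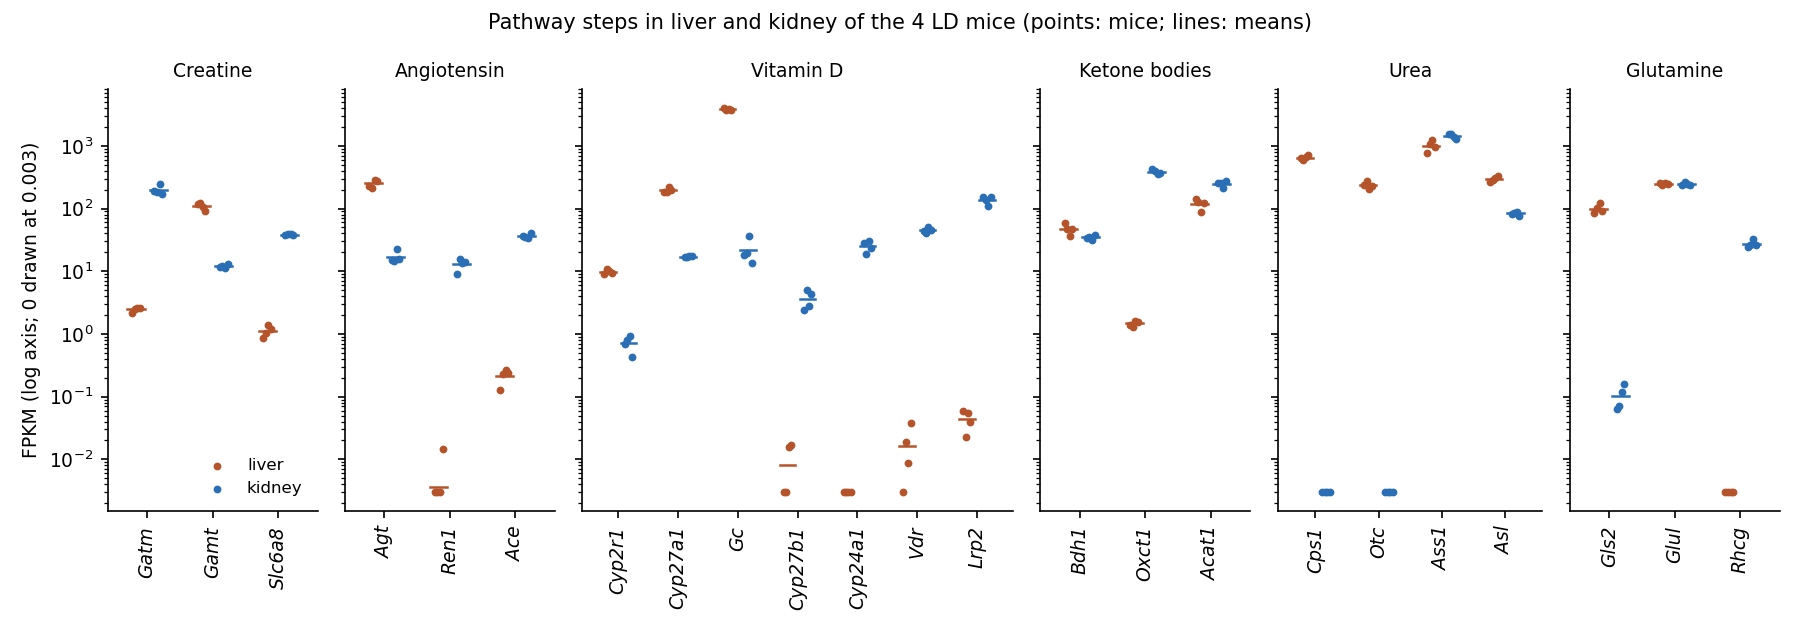
FPKM (log axis, 0 drawn at 0.003) of genes in 6 pathways for the liver (red) and kidney (blue) of each of the 4 LD mice, with lines at the means. Red lies above blue for Gamt, Agt, Cyp2r1, Cps1 and Gls2 and below it for Gatm, Ren1, Cyp27b1 and Oxct1, while Glul is level as deposited and Ass1 is higher in kidney as deposited but not after scaling by the median ratio.

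The steps of the urea cycle differed in how far the organs were apart. Cps1 and Otc, the mitochondrial steps, were at 651 ± 46.8 and 236 ± 27.3 FPKM in liver and had no fragment in any kidney, at least 86057-fold and 13024-fold higher in liver. Nags, which makes the activator of Cps1, was at 26 ± 3.09 FPKM in liver and 0.0411 ± 0.0360 FPKM in kidney. The cytosolic steps, which make arginine in the kidney, were at high levels in both organs. Ass1 was at 766, 1049, 1238 and 962 FPKM in the livers and 1533, 1566, 1397 and 1290.1 FPKM in the kidneys. Each kidney lay above each liver as deposited, with a log2 difference of −0.54 (SE 0.127, adjusted p = 0.00424 by limma), but this was 0.25 after scaling by the median ratio. Asl was 3.55-fold higher in liver. The mitochondrial carriers Slc25a15 and Slc25a13 were called higher in liver, by 0.80 and 0.48 on the log2 scale.

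Glutamine is handled differently in the organs, and the kidney releases ammonia from it into urine. Gls2, a glutaminase of hepatocytes, was at 83.5, 100.4, 123 and 91.2 FPKM in the livers and 0.0633, 0.0718, 0.119 and 0.158 FPKM in the kidneys. Every liver lay above every kidney (log2 difference 8.95, SE 0.140, adjusted p = 1.0e-09 by limma). Glul, glutamine synthetase, was level as deposited, at 246 ± 10.7 FPKM in liver and 248 ± 12.4 FPKM in kidney, with a log2 difference of −0.01 (95% interval −0.18 to 0.16) that became 0.78 after scaling by the median ratio. Glud1, glutamate dehydrogenase, was 2.26-fold higher in liver, over 2-fold as deposited but not in all 3 scalings. The glutamine transporters Slc38a3 and Slc38a4 were 68.8-fold and 137-fold higher in liver. Rhcg, an ammonia channel of the collecting duct, had no fragment in liver and was at 27.4 ± 3.87 FPKM in kidney, and its relative Rhbg was 2.91-fold higher in kidney.

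Liver and kidney both release glucose, while glycolysis uses different isozymes in them. Of 25 genes of glucose release and use, 9 were higher in liver and 15 in kidney as deposited, with a median log2 difference of −0.55, and after scaling by the median ratio 13 and 11. Of the 25 genes, 3 were called in opposite directions by different scalings. For some genes of glucose release the sign changed with the scaling. G6pc was −0.67 as deposited and 0.12 after scaling by the median ratio, and Fbp1 and Pck1 were 0.32 and 0.55 as deposited and −0.21 and −0.27 after quantile normalization. Pck2, the mitochondrial counterpart of Pck1, stayed toward kidney in all 3 scalings (−1.99 as deposited). The glucose transporters of the proximal tubule, Slc5a2 and Slc5a1, had log2 differences of −9.48 and −5.68. Hk1, a hexokinase of many tissues, was at 22.9, 23.2, 27.4 and 23.6 FPKM in the kidneys and 0.676, 0.492, 0.676 and 0.550 FPKM in the livers. Ldhb, which favours lactate oxidation, was at 795, 777, 914 and 737 FPKM in the kidneys and 2.36, 2.16, 1.61 and 1.73 FPKM in the livers, a 409-fold difference in the mean (log2 difference −8.62, SE 0.123, adjusted p = 6.1e-10 by limma). Ldha differed little, 0.23 as deposited and −0.03 after quantile normalization. Pygl, glycogen phosphorylase of liver, was 14.5-fold higher in liver.

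Of 20 pairs of genes with related functions, 13 had members called higher in opposite organs as deposited, in each case the first toward liver and the second toward kidney. The pairs and their order were chosen with earlier results of these data known, so this count and its direction describe the choice of pairs. Among the members counted, the calls of Ldha, Pck1 and Slc10a2 did not hold in all 3 scalings. Both members were over 2-fold in 9 pairs as deposited and in 8 pairs under the 3 scalings. As a share of the summed FPKM of the pair, Pklr took 93.7% in liver and 9.31% in kidney against Pkm, Gys2 took 99.5% and 40.1% against Gys1, and Ldha took 99.3% and 24.1% against Ldhb. These shares compare genes within a library and do not depend on the scaling by totals or by the median ratio. The share of the first gene was above 50 percent in liver and below it in kidney for 12 of the 20 pairs. Mat1a, the methionine adenosyltransferase of hepatocytes, took 97.6% in liver and 0.00534% in kidney against Mat2a. The peroxisomal CoA diphosphatase Nudt7 took 91.4% and 2.59% against Nudt19, and the hydroxyacid oxidase Hao1 took 99.6% and 0.00442% against Hao2. The glycerol channel Aqp9 took 75.2% and 0.0274% against the water channel Aqp1. Hsd11b1, which activates glucocorticoids, took 100.0% in liver and 60.1% in kidney against Hsd11b2, which inactivates them in the collecting duct. Pck1 dominated both organs, with 99.9% and 99.5% against Pck2. Prodh went the other way, with 54.0% in liver and 81.2% in kidney against Prodh2.

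**Figure D3:**
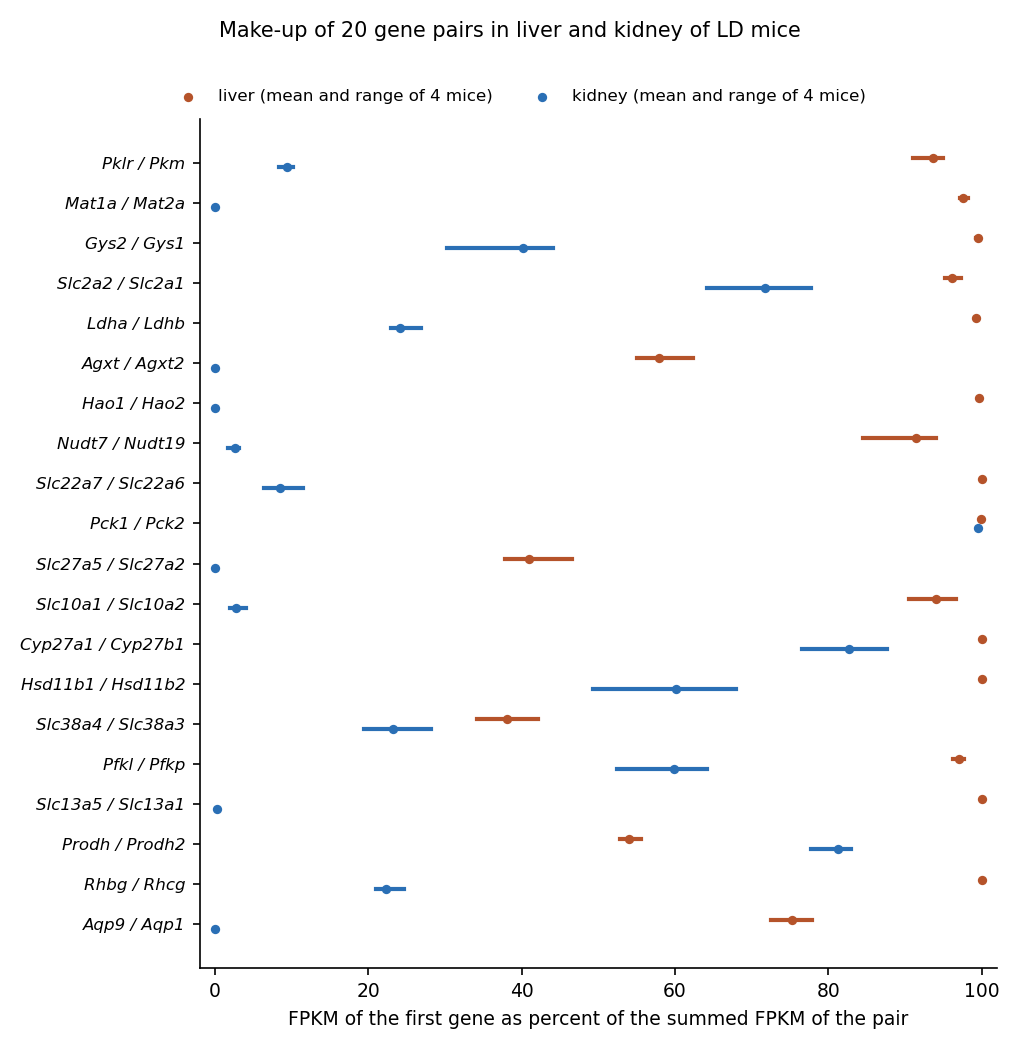
FPKM of the first gene as a percent of the summed FPKM of the pair, for 20 pairs in the liver (red) and kidney (blue) of the 4 LD mice, with points at the mean and bars from the lowest to the highest mouse. The red point lies right of 50 percent and the blue point left of it in 12 pairs, among them Pklr and Pkm, Ldha and Ldhb, and Mat1a and Mat2a.

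Of 17 genes of circulating hormones and their cofactors, 13 were higher in liver and 4 in kidney, with a median log2 difference of 2.88. Hamp, the iron hormone hepcidin, was at 309, 358, 509 and 377 FPKM in the livers and had no fragment in kidney. Igf1 and its carrier Igfals were 74.4-fold and 19.8-fold higher in liver. Angptl8, which takes part in the inhibition of lipoprotein lipase, had a log2 difference of 6.49, while its relative Angptl4 was called with 1.22. Kl, the phosphate-regulating klotho, was at 141, 131, 125 and 135 FPKM in the kidneys and 0, 0.0159, 0.00744 and 0 FPKM in the livers (log2 difference −10.30, SE 0.108, adjusted p = 1.5e-10 by limma). Bmp6 and Fst were also over 2-fold higher in kidney as deposited (−3.92 and −2.21), the latter not in all 3 scalings. Without L86 the log2 difference of Fst was −2.56. Igfbp1, a binding protein that responds to fasting and insulin, was at 26.3, 9.46, 103 and 24.8 FPKM in the livers of L63, L65, L86 and L104. The liver of L86 was highest, and the log2 difference was 4.21 with this mouse and 3.52 without it. Thpo, thrombopoietin, was at 3.62 ± 0.830 FPKM in liver and 2.62 ± 0.680 FPKM in kidney. Epo was below the minimum, with no fragment in liver and 0.172 ± 0.223 FPKM in kidney.

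Of 20 genes of bile acid synthesis and transport, 15 were higher in liver and 5 in kidney, with a median log2 difference of 3.59. Slco1b2 and Slc27a5, which take up and activate bile acids, led with 11.50 and 11.40. Abcb11, the canalicular export pump, was at 51.7 ± 7.39 FPKM in liver and 0.00900 ± 0.0180 FPKM in kidney. Cyp7a1, the rate-limiting enzyme of the classic pathway, was at 63.6, 27.5, 26 and 25.1 FPKM in the livers of L63, L65, L86 and L104 and had no fragment in any kidney. The liver of L63 was the highest, and the ratio of SD to mean was 52.7% over the 4 livers. Slc51a and Slc51b, the partners of a basolateral exporter, were at 32.5 ± 6.30 and 53.7 ± 4.62 FPKM in kidney and at 0 and 0.123 ± 0.0746 FPKM in liver. Slc10a2, the apical sodium-bile acid transporter, was called higher in kidney as deposited (−0.31) and higher in liver after scaling by the median ratio (0.48), and the first call was lost when L63 (−0.23), L65 (−0.36) or L104 (−0.22) was left out. Amacr was −1.03 as deposited and −0.24 after scaling by the median ratio.

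Amino acid catabolism also leaned to liver, with 33 of 41 genes higher in liver and 5 in kidney and a median log2 difference of 1.76. Mat1a, Tat (tyrosine aminotransferase) and Tdo2 (tryptophan dioxygenase) were at 1115 ± 170.1, 878 ± 249 and 925 ± 38.1 FPKM in liver, and in kidney Tat had no fragment while Tdo2 had a single fragment. Sds, serine dehydratase, and Agxt, which detoxifies glyoxylate, had no fragment in kidney either and were at 96.3 ± 14.5 and 87.4 ± 18.2 FPKM in liver. Dao, D-amino acid oxidase, was the reverse, with no fragment in liver and 108, 117, 113 and 127 FPKM in the kidneys. Acmsd, which directs tryptophan away from NAD synthesis, was 3.47-fold higher in kidney, over 2-fold as deposited but not in all 3 scalings. Ddo was called higher in kidney in all 3 scalings (−1.21). Gldc and Aass were called higher in kidney as deposited (−0.66 and −0.90), and after scaling by the median ratio they were 0.13 and −0.11.

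Of 31 cytochromes P450 of families 1 to 4, 25 were higher in liver, 4 in kidney and 2 were not called, with a median log2 difference of 3.65. Cyp3a11, the main drug-metabolising member of its family in mouse, was at 1566, 1857, 1758 and 1774 FPKM in the livers and 0.0126, 0.186, 0.0285 and 0.0270 FPKM in the kidneys. Cyp1a2, Cyp2a12, Cyp2c37, Cyp2c50, Cyp2c54, Cyp2c70 and Cyp3a25 had no fragment in any kidney and were between 251 and 539 FPKM in the mean of the livers. Cyp2e1, which oxidises ethanol, was the most abundant of them in liver, at 5247 ± 392 FPKM in liver and 1010.5 ± 39.6 FPKM in kidney, higher in liver in all 3 scalings. The kidney members were Cyp4b1 at 1315, 1437, 1391 and 1642 FPKM, Cyp2j13 with no fragment in liver, Cyp2s1 (−3.71) and Cyp2j5 (−1.31, over 2-fold as deposited). Many of these genes have near-identical neighbours, so their single values are uncertain.

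Of 26 organic ion transporters, 7 were higher in liver and 19 in kidney, near the 69.0% of all genes. Over 2-fold in all 3 scalings were 4 toward liver and 15 toward kidney, and the median log2 difference was −2.57. Slc22a12, the urate exchanger, was at 264 ± 48.3 FPKM in kidney and 0.00424 ± 0.00847 FPKM in liver. Slc22a6 and Slc22a8, the anion transporters that take up drugs from blood, were at 155 ± 23.6 and 131 ± 13.6 FPKM in kidney, and Slc22a6 had no fragment in liver. Slc22a2, a cation transporter, was at 96.1 ± 11.3 FPKM in kidney and 0.00480 ± 0.00961 FPKM in liver. Slco1b2, Slco1a4, Slc22a27 and Slco2b1 were over 2-fold higher in liver (11.50, 5.12, 3.42 and 2.18). Slc22a19 and Slco4c1 had no fragment in liver and were at 19.4 ± 5.53 and 6.00 ± 1.22 FPKM in kidney.

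Peroxisomes are abundant in both organs. Of 51 peroxisomal genes, 27 were higher in liver and 19 in kidney as deposited, against 16.5% and 69.0% of all genes, and the median log2 difference was 0.32. After scaling by the median ratio the counts were 37 and 13, and 5 genes were called in opposite directions by different scalings. In all 3 scalings, 12 were over 2-fold higher in liver and 6 in kidney. Uox, which degrades urate, was at 1560.0, 1676, 1603 and 1345 FPKM in the livers and 0, 0, 0.0952 and 0.0300 FPKM in the kidneys, where at most 4 fragments were counted. Hao1 and Nudt7 were toward liver (10.46 and 4.57), and Dao and Hao2 were toward kidney (−10.18 and −8.17). Agps, an enzyme of ether lipid synthesis, was 20.4-fold higher in kidney, and Mpv17l and Nudt19 were 22.7-fold and 18.9-fold higher. Cat, catalase, was 2.13-fold higher in liver (log2 difference 1.09, SE 0.0680, adjusted p = 2.0e-06 by limma). Of these, Agps, Mpv17l and Cat were chosen after their values were seen.

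Mitochondrial transcripts took a larger share of the kidney libraries. They made up between 15.7% and 18.0% of the fragments on genes in the kidneys and between 6.81% and 8.81% in the livers. The share was lower in liver in 4 of 4 mice, by 9.0 percentage points in the mean (exact sign-flip permutation test, two-sided p = 0.13, the smallest that 4 pairs allow). All 9 entries on the mitochondrial chromosome were called higher in kidney as deposited, with a median of −1.60, and 1 of them, DQ539915, was called higher in liver after scaling by the median ratio (−0.40 as deposited and 0.39). Of 76 nuclear subunits of oxidative phosphorylation, 3 were higher in liver and 65 in kidney as deposited, with a median of −0.76 that is close to the −0.80 of all genes. After scaling by the median ratio the counts were 31 and 20. The subunits with the largest differences were Cox7a1 (−3.02), Cox6a2 (−2.71) and Ndufb4 (−2.22), all over 2-fold higher in kidney as deposited, and Cox6a2, which had no fragment in liver, not in all 3 scalings. Ribosomal proteins were also bound to the scaling, with 5 of 81 higher in liver and 54 in kidney as deposited (median −0.37) but 56 and 6 after scaling by the median ratio.

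The vacuolar proton pump, which acidifies organelles in all cells and urine in intercalated cells, had a median further toward kidney. Of 21 subunits and accessory genes, 0 were higher in liver and 20 in kidney as deposited by limma, with a median of −1.51, and after scaling by the median ratio 1 and 15. The subunits known from the apical pump of intercalated cells had the largest differences. Atp6v1b1 was at 36.8, 38.8, 37.4 and 31.2 FPKM in the kidneys, and Atp6v1b1, Atp6v1c2 and Atp6v1g3 had no fragment in any liver. Atp6v0a4 was at 79.1, 80.6, 74.2 and 75 FPKM in the kidneys and 0.0689, 0.0311, 0.0932 and 0.113 FPKM in the livers, a 1010.1-fold difference in the mean. The plot of list medians sets these groups side by side.

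**Figure D4:**
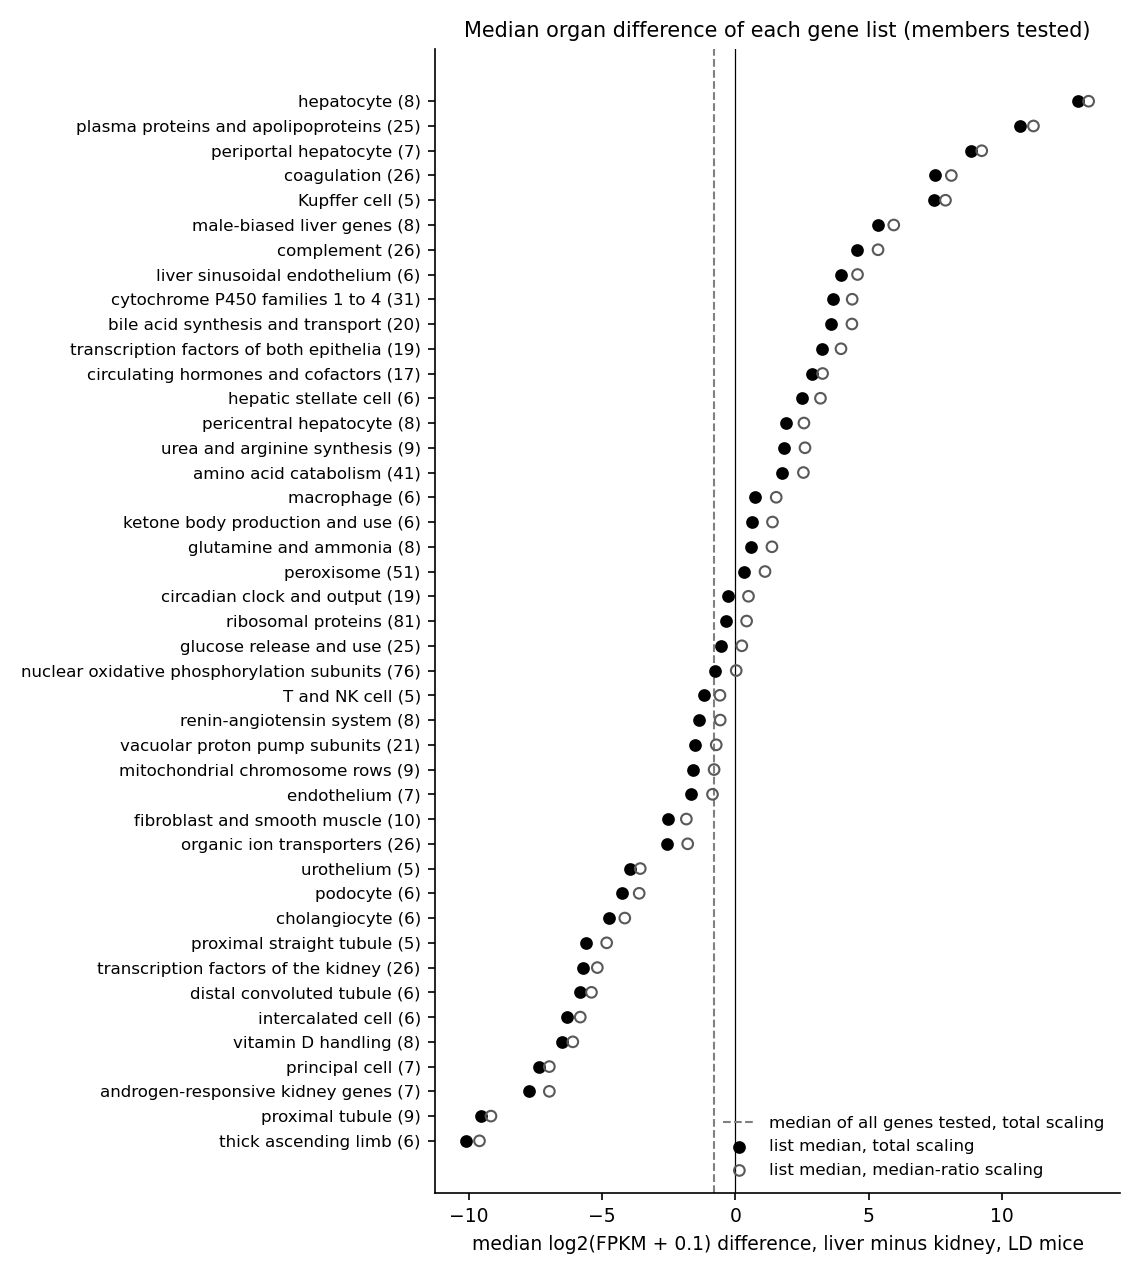
Median log2(FPKM + 0.1) difference, liver minus kidney, of the tested members of each gene list, with the number of members in parentheses. Filled circles use the values as deposited, open circles the median-ratio scaling, and the dashed line is the median of all genes tested (−0.80). The medians of ribosomal proteins, glucose release and use, clock genes and oxidative phosphorylation change sign between the scalings, and the nephron segments and plasma proteins do not.

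Clock genes were compared between organs of the same mouse. The organs were collected within a window of some hours, and the hour of each mouse is not given in the sources used here. As deposited, 5 of 19 genes were higher in liver and 10 in kidney (median −0.29), and after scaling by the median ratio 11 and 2. Under the 3 scalings, Nfil3 and Ciart, both repressors of clock output, were over 2-fold higher in liver (1.79 and 1.52), and Cry1 and Cry2 were called higher in liver (0.39 and 0.82). Cry1 was no longer called when L86 (0.35) or L104 (0.25) was left out. Hlf, an activator of output genes, was called higher in kidney in the 3 scalings (−1.52). Npas2, a partner of Arntl, had the largest difference of the list as deposited (−2.40) and was not called in all 3 scalings. Per2, Per3, Nr1d1 and Bhlhe41 were called higher in kidney as deposited (−0.46, −0.45, −0.29 and −0.83) and higher in liver under another scaling. The calls of Per3 and Nr1d1 were each lost when 1 of 3 mice was left out (L63, L65 or L104 for Per3, L63, L65 or L86 for Nr1d1), with log2 differences from −0.43 to −0.38 and from −0.33 to −0.17. Dbp, an output activator that peaks near dusk in rodents, was at 28.6, 22.0, 13.4 and 8.25 FPKM in the livers and 34.9, 26.2, 15.8 and 16.4 FPKM in the kidneys of L63, L65, L86 and L104. L63 and L65 were the highest in both organs. Arntl, which is low when Dbp is high in a normal cycle, was at 0.70, 1.30, 2.5 and 3.95 FPKM in the livers and 0.937, 1.04, 2.59 and 1.81 FPKM in the kidneys. L63 and L65 lay below L86 and L104 in both organs. The mouse with the highest level was the same in liver and kidney for 8 of the 19 genes, and the mouse with the lowest level for 7. Clock itself had a ratio of SD to mean of 32.0% in liver and 4.63% in kidney.

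**Figure D5:**
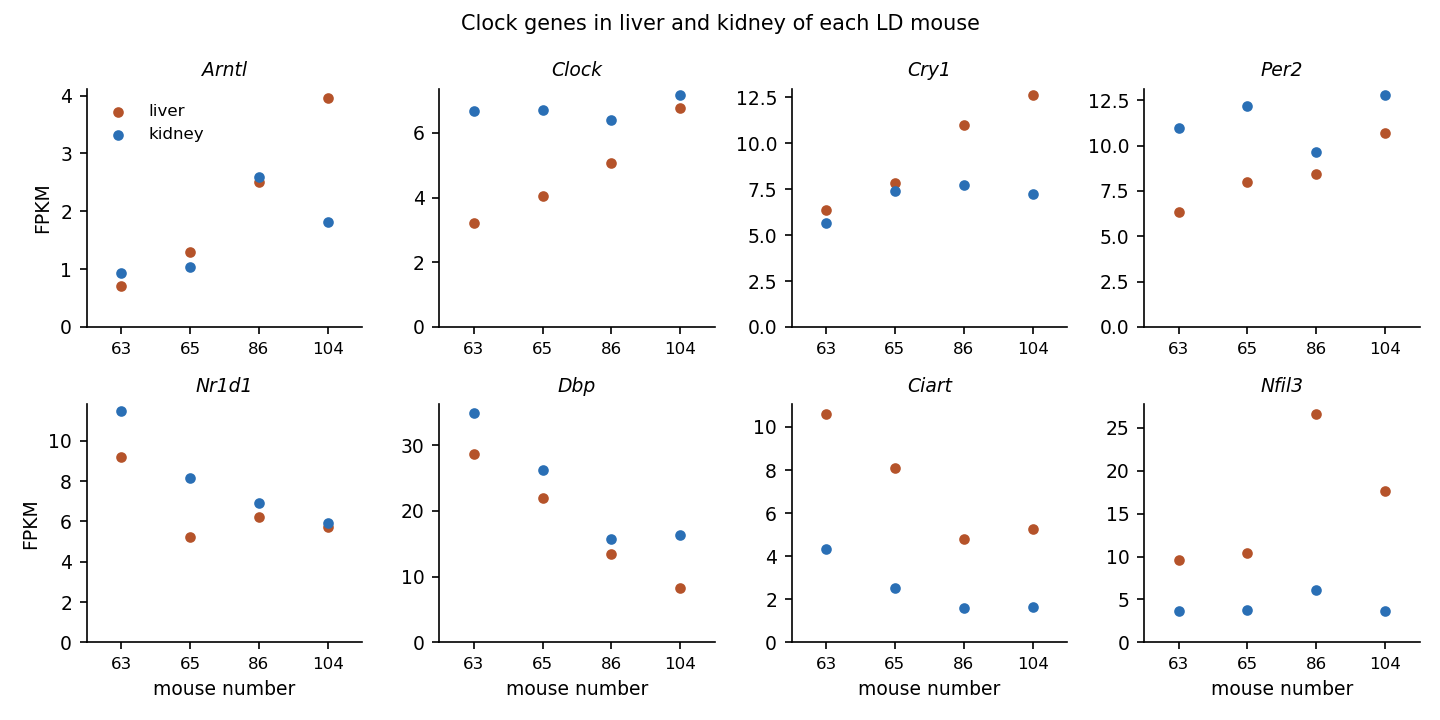
FPKM (linear axis from 0) of 8 clock genes in the liver (red) and kidney (blue) of each LD mouse, named by number. Dbp is higher and Arntl lower in L63 and L65 than in L86 and L104 in both organs, and Ciart and Nfil3 lie above the kidney values in the liver of every mouse. The direction of Per2 and Nr1d1 depends on the scaling.

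Markers of other cells in the tissues were also set side by side. The 5 Kupffer cell markers were over 2-fold higher in liver, with a summed level between 76.6 and 112 FPKM in the livers and between 0.0297 and 0.127 FPKM in the kidneys. Of 6 markers of liver sinusoidal endothelium, 6 were higher in liver, led by Clec4g at 41.9 ± 1.27 FPKM. Of 6 markers named for cholangiocytes, which tubular epithelium also expresses, 5 were higher in kidney, among them Epcam (−6.58) and Krt7 (−5.86). Sox9, the remaining member, was not called with all mice (0.39, adjusted p = 0.485 by limma), while without L86 the log2 difference was 1.13 (adjusted p = 0.00417 by limma). General endothelial markers were higher in kidney for 6 of 7 as deposited and for 4 after scaling by the median ratio, when 2 were higher in liver, and 1 was over 2-fold in all 3 scalings. This was Emcn, Emcn at 60.1 ± 1.78 FPKM in kidney and 2.53 ± 0.228 FPKM in liver. Of 10 fibroblast and smooth muscle markers, 9 were higher in kidney, 4 of them over 2-fold in all 3 scalings, and Dcn, a proteoglycan, was 3.22-fold higher in liver. The collagen markers Col1a1, Col1a2 and Col3a1 were highest in the kidney of L86, at 5.17, 13.3 and 9.92 FPKM. The other kidneys were at most at 1.86, 8.12 and 4.02 FPKM. These genes were picked after their values were seen. The adjoining immune markers were at low levels. Of 6 macrophage markers, 4 were higher in liver and 1 in kidney, and their summed level was 36.2, 46.0, 91.9 and 47.5 FPKM in the kidneys of L63, L65, L86 and L104, with L86 the highest. Without L86, 4 were higher in liver and 0 in kidney by limma. The 4 tested B and plasma cell markers were higher in kidney as deposited and 2 of them after scaling by the median ratio, and another was called in the opposite direction by quantile normalization. Most of their summed level of 32.4 to 47.6 FPKM in the kidneys was Jchain, the joining chain of secreted antibodies, at 31.1, 40.3, 38.4 and 28.8 FPKM against 3.66, 5.33, 8.40 and 3.06 FPKM in the livers. The 3 tested neutrophil markers were higher in liver. Urothelial markers were found in kidney at a summed level between 7.57 and 11.9 FPKM. Of 7 markers of the adrenal cortex none passed the minimum level, with sums of at most 0.98 FPKM in any library. Of the pancreatic markers, Cela1 alone was tested, and Pnlip, Cpa1 and Amy2a5 had no fragment in either organ.

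Some genes were level between the organs as deposited. Of 681 genes above 50 FPKM in both organs, 180 were higher in liver, 371 higher in kidney and 130 not called, with a median log2 difference of −0.32. The smallest differences belonged to Etfa, Cyp4a12a, Kng2, Dbi and Cyc1. Etfa, an electron carrier of fatty acid oxidation, was at 212, 215, 198 and 209 FPKM in the livers and 197, 204, 201 and 232 FPKM in the kidneys. The log2 difference was 0.00, with a 95% interval from −0.17 to 0.18. After scaling by the median ratio, the differences of these 5 genes were between 0.78 and 0.80 toward liver. After quantile normalization they were −0.12 (Etfa), 0.11 (Cyp4a12a), 0.04 (Kng2), −0.60 (Dbi) and −0.03 (Cyc1).

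The organ differences were present in the ADV-conditioned mice as well, which did not enter the fit. These mice differ from the LD mice in their light schedule, so they are a second set of animals and not replicates. By the deposited values, 1115 genes were over 2-fold higher in liver in LD mice. Of these, 1059 (95%) lay on the same side in all 4 ADV pairs. Of the 4299 over 2-fold higher in kidney as deposited, 3784 (88.0%) did. The ADV values were used with the deposited scaling too, and the same share over all genes tested was not counted. The kidney of A115 stood apart, with 33.8% of its fragments on mitochondrial genes. In the 3 pairs without A115 the shares of the liver and kidney calls were 95.9% and 98.9%. When the organ difference in LD mice was tested against that in ADV mice, limma called 1 gene, DQ568996, which is described in the closing observations, and 521 genes (3.78%) had an unadjusted p under 0.05. Leaving out A115, a choice made after the data were seen, gave 216 genes, and 3416 of the 13796 had an unadjusted p under 0.05. Leaving out any other mouse gave 1 gene, with 285 to 694 at an unadjusted p under 0.05. The result with all mice thus depended on A115.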

How the data were processed

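Poly(A)-enriched stranded RNA-seq was made from liver and kidney of each mouse. The authors trimmed adaptors, mapped reads to mm10 with STAR, removed reads of low mapping quality, and deposited FPKM per gene with HOMER over UCSC known canonical exons (STAR 2.5.4b per the submitters' processing notes, which also name bcl2fastq). Whether counting used the strand is not given in the sources used here, so overlapping and antisense genes are uncertain. FPKM multiplied by exon length and by the library total gave fragments in steps of 0.5 for 100% of the values checked. Exon length was deposited beside the values.

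Differences were tested by limma 3.58.1 (R 4.3.3) on log2(FPKM + 0.1) with a trended variance, the mouse as a block and Benjamini-Hochberg adjustment over 13796 genes, and by limma's treat for over 2-fold differences. Both organs of a number come from the same mouse per the labels. Deviations from the organ means correlated at 0.0941, 0.142, 0.161 and 0.0659 between organs of the same mouse and from −0.109 to 0.0333 between mice, over 10680 genes. The mice are separate animals. The script was tested on simulated data.

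The members and the gene lists were chosen with earlier results of these data known. Genes were named by rule: the 10 largest differences in each direction with a mean above 10 FPKM in the higher organ, the 10 most abundant in each organ, every member of the pathways between organs, the pairs and the clock list, of each other list the 4 largest differences, members in the opposite direction and members at 0, and the 5 smallest differences above 50 FPKM in both organs. Some genes named by this rule and their pairs are not reported here. Of symbols on several entries, the entry with the highest mean was used. Alternatives changed the scaling, the pseudocount, the filter, the block, the model and the mice included. Promoters were read from RefSeq on GRCm38.p6 with Python 3.11.15.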

Additional observations from a re-analysis of the deposited data

Results flagged for a closer look

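In a group of 4 libraries, a value was set apart when its gap to the nearest other library, divided by the range of the group on the log2(FPKM + 0.1) scale, exceeded Dixon's 95% critical value. Of 339 groups of the named genes, 28 held such a value, and chance gives about 1 in 20. The kidney of L86 held 12 of them and the liver of L86 held 7.

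In the kidney of L86, the highest values were those of Spp1 (gap over range 0.848, 2676 FPKM against at most 759), Serpina10 (0.884, 14.4 against at most 1.92 FPKM), F3 (0.850, 31.9 against at most 14.7 FPKM) and Hsd11b2 (0.886, 65.2 against at most 39.8 FPKM). Smaller excesses were found there for Eef1a1 (0.847), Hk1 (0.843), Pck2 (0.906), Bmp6 (0.893) and Nfil3 (0.946, 6.11 against at most 3.74 FPKM). The lowest values in the same kidney were those of Akr1c21 (0.873), Cyp2j5 (0.83) and Per3 (0.878).

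In the liver of L86, Hpx (0.876, 4073 against at most 2806 FPKM) and Enpep (0.830) were highest. Serpina3k (0.839, 3767 against at least 7108 FPKM), Nudt7 (0.906, 178 against at least 412 FPKM), Angptl8 (0.887, 19.4 against at least 55.6 FPKM) and Ddo (0.904) were lowest there.

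The liver of L63 was highest for Cyp7a1 (0.900, 63.6 against at most 27.5 FPKM) and Apoa1 (0.966), and it was lowest for Thpo (0.933). The liver of L104 was highest for Cyp2c70 (0.990, 570.2 against at most 365 FPKM). The kidney of L104 was highest for Hoxa9 (0.881), Hsd11b1 (0.903) and Slc22a2 (0.894), and the kidney of L65 was lowest for Cox6a2 (0.889) and Atp6v1c2 (0.864).

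The organ difference of DQ568996 differed between LD and ADV mice (adjusted p = 0.00133 by limma). This entry lies on chromosome 6 from 128445257 to 128445286 with 29 bases of exon. Each of the 4 LD livers held 0.5 fragment, or 0.656 to 0.705 FPKM, and the other 12 libraries held none. The liver of L86 was set apart as lowest (0.899), although all 4 livers held the same 0.5 fragment and differ in FPKM by their totals alone. The call rests on the least amount that the table can hold. With 0.5 or 1 FPKM added in place of 0.1, limma called 0 genes, with 464 and 444 genes at an unadjusted p under 0.05. In 11 tested genes all 4 LD pairs lay one way and all 4 ADV pairs the other, and none of them was called. They include Crot, a peroxisomal carnitine transferase chosen after its values were seen, with log2 differences of −0.29 in LD and 0.75 in ADV mice (a difference of −1.05, adjusted p = 1.0 by limma).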

How the results depend on the processing

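Counts of genes moved with the scaling. With a median-ratio scaling 5036 genes were higher in liver and 5437 in kidney (over 2-fold 1801 and 2525), and with quantile normalization 4936 and 5310 (over 2-fold 1797 and 2127). With 1 FPKM added, 2760 genes were over 2-fold higher in kidney. Leaving out each mouse gave 2062 to 2304 genes higher in liver, 9192 to 9278 higher in kidney, and 1048 to 1140 and 3983 to 4134 over 2-fold. Without the mouse as a block the counts were 2219 and 9469, and 7 of the 229 named genes lost their call (Slc22a7, Nr1h4, Nr1d1, Slc10a2, Dbp, Cry1 and Thpo). Each mouse gave a liver and a kidney, so the log2 differences are the same with and without the block. This alternative could therefore change a call but not a direction. For the organ difference in LD against ADV mice, limma called 2 genes with 0.01 FPKM added and 0 with 0.5 or 1 (464 and 444 at an unadjusted p under 0.05). With each mouse left out, a choice made after the data were seen, limma called 1 to 216 genes. The 216 were without A115, when 3416 genes had an unadjusted p under 0.05. The mitochondrial share differed by −9.71 percentage points when taken of the summed FPKM. Of 4086 combinations of a named gene with an alternative, 3949 stayed on their side of the threshold with no called difference changing sign, 96 lost the call, 9 gained one and 32 changed sign with a call before or after, all of these 32 under another scaling. Calls lost without at least 1 mouse were those of Slc22a7, Nr1h4, Slc10a2, Crot, Per3, Cry1, Hnf4a, Nr1d1, Clock and Ldha, and Sox9 gained a call without L86. After scaling by the median ratio the log2 differences that changed sign were 0.39 (DQ539915), 0.28 (Slc22a7), 0.79 (Cyp4a12a), 0.50 (Nr1h4), 0.32 (Agtr1a), 0.78 (Glul), 0.25 (Ass1), 0.12 (G6pc), 0.68 (Prodh), 0.48 (Slc10a2), 0.13 (Gldc), 0.24 (Clock), 0.32 (Per2), 0.32 (Per3), 0.49 (Nr1d1), 0.35 (Dbp), 0.49 (Crot) and 0.78 (Dbi). After quantile normalization they were 0.75 (Procr), 0.10 (Slc22a7), −0.85 (Eef1a1), 0.09 (Agtr1a), −0.21 (Fbp1), −0.27 (Pck1), −0.03 (Ldha), 0.14 (Slc10a2), 0.23 (Clock), 0.18 (Per2), 0.43 (Per3), 0.42 (Nr1d1), 0.84 (Bhlhe41) and 0.04 (Dbp). Which scaling holds was not tested. At the kidney depth 1 fragment on a gene of 1 kb stands at up to 0.0584 FPKM, and less on longer genes, so levels below the smallest step of a gene were not detectable.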
